A study of Mus musculus with 24 samples.

Results

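Of 19938 genes measured in D3 mouse embryonic stem cells, 10 that are known from germ cells and from entry into meiosis were followed across all 8 groups. They are Stra8, Ddx4, Dazl, Mael, Sycp3, Mov10l1, Meioc, Sohlh2, Prdm1 and Tex19.1. They were chosen by name, with earlier results of these data known. Their counts and medians set against all genes are thus a description, not a test. Each is read by 1 probe set that is annotated to that symbol alone. D3 is a long-established stem cell line from a mouse blastocyst. The siPRMT1 cells carried a knockdown of Prmt1, the gene of a protein arginine methyltransferase, and the siSCR cells a scrambled sequence. Both were sampled in 4 states with 3 biological replicates each. The states were undifferentiated cells, day 4 embryoid bodies made without LIF, embryoid bodies given the vehicle DMSO for 12 h, and embryoid bodies given all-trans retinoic acid (ATRA, 5 mikromol) for 12 h. Per the labels, all cells had been passaged at least 3 times on gelatin to remove feeder cells. The sources used here do not say whether the knockdown was stable or whether either line is 1 clone. No animal, gonad or sorted germ cell was sampled.

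In the embryonic gonad, retinoic acid switches on STRA8, which with its partner MEIOSIN starts the meiotic gene programme. MEIOC then protects early meiosis by lowering transcripts of the mitotic cycle, DDX4 and DAZL bind germ cell RNAs, and MAEL and MOV10L1 serve the piRNA pathway that silences transposons. Embryonic stem cells are not germ cells, yet they hold low or moderate levels of several of these transcripts, whose promoters are kept in check by DNA methylation and by a repressor complex that includes PCGF6, E2F6, MGA and MAX.

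The values are log2 expression values, and a change is a log2 fold change ± standard error from a single limma fit of 8 group means (n = 3 in each). Genes count as called, higher or lower, where the Benjamini-Hochberg adjusted p over all 19938 genes lay under 0.05. A knockdown effect here is siPRMT1 over siSCR, where the knockdown and any other difference between the lines cannot be told apart. Prmt1 itself was at 38.6%, 64.6%, 46.2% and 36.7% of the siSCR level in undifferentiated, day 4, DMSO and ATRA samples. The 13 markers of undifferentiated embryonic stem cells were at 9.46 or above on every array, embryoid bodies included. On the leading principal component the siSCR samples given DMSO or ATRA (6 arrays) were far from the other 18, with scores of 50.1 to 61.2 against -26.8 to -9.44. The labels name no batch, so the gap and the groups cannot be told apart in 3 comparisons, the knockdown with DMSO, the knockdown with ATRA, and DMSO over day 4 in siSCR. The labels call the replicates biological but name no separate cultures, so the p-values measure the spread between these samples. As a scale of low signal, the 95th percentile of 1027 olfactory receptor genes was 6.76 to 7.30 by group. Stra8 lay below it in all 4 groups of day 4 and DMSO embryoid bodies, Sycp3 in undifferentiated and day 4 siSCR cells, and Mael and Meioc in siSCR with DMSO and with ATRA.

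Shown are the promoter windows of the 6 members that hold letters known to be bound by E2F6, by MGA and MAX, or by retinoic acid receptors. The windows of Dazl, Sohlh2, Prdm1 and Tex19.1 held none of the 3 kinds marked. Each window is the 250 bases upstream of the transcript start that the RefSeq table (GRCm38.p6) uses for that gene, 5′ to 3′ on the gene's strand. In Stra8, Ddx4, Mov10l1, Meioc and Prdm1 this start lies inside the span annotated for the gene, so the window lies partly or wholly within that span. The Prdm1 window, chr10:44458749-44458998 on the minus strand, lies deep within it, as the span runs from 44437174 to 44528558. Capitals mark GCGGGAA, the letters bound by E2F6, CACGTG, the E-box bound by MGA and MAX, and AGGTCA, the half-site of retinoic acid receptors. The Stra8 window is chr6:34920698-34920947 on the plus strand, and that of Ddx4 is chr13:112652311-112652560 on the minus strand, as is that of Mael, chr1:166238745-166238994. The Sycp3 window is chr10:88459337-88459586, that of Mov10l1 chr15:88982744-88982993 and that of Meioc chr11:102665335-102665584, all on the plus strand.
Stra8: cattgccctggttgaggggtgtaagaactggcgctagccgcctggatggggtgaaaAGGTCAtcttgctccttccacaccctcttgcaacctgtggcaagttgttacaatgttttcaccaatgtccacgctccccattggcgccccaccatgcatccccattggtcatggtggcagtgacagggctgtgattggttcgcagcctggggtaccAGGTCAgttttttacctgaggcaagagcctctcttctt
Ddx4: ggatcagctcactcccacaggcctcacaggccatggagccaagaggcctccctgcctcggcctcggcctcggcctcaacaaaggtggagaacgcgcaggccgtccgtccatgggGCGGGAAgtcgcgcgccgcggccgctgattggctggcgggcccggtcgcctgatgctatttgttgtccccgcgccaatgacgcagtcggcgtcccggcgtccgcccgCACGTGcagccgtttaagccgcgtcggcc
Sycp3: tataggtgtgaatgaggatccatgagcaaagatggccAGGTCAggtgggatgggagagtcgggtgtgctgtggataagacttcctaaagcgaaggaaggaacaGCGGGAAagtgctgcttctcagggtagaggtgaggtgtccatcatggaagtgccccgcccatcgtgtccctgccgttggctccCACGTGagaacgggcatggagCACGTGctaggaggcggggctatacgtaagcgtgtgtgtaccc
Mov10l1: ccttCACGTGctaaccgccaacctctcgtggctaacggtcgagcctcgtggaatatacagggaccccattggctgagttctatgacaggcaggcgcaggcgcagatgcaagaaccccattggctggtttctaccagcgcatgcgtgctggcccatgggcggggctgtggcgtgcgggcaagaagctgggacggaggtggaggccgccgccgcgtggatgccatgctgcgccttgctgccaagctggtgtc
Mael: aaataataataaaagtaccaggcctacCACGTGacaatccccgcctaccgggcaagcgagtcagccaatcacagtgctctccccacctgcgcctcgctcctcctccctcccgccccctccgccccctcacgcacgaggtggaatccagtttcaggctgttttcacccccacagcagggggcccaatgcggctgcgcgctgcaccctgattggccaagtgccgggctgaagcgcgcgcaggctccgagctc
Meioc: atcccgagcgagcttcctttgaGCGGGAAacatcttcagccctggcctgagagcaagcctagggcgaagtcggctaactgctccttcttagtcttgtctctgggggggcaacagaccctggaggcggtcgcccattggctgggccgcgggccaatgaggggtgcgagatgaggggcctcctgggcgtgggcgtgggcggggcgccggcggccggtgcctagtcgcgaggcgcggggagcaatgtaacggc

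Both strands were searched, and no hits overlapped in these windows. GCGGGAA was found in Ddx4, Sycp3 and Meioc, 3 of the 10 windows, against 3.82% of 32851 mouse windows of the same length. CACGTG was found in Ddx4, Sycp3 and Mov10l1, and also in Mael, where it begins 223 bases before the start, so in 4 of 10 against 6.02% of all windows. AGGTCA was found in Stra8, where it begins 194 and 38 bases before the start, and in Sycp3, against 14% of all windows. A direct repeat of 2 such half-sites spaced by 5 bases, which contains the half-site by construction, was in 0 of the 10 and in 0.00913% of all windows. CNCCTCAG, a motif of STRA8 with MEIOSIN, was in Sohlh2 alone among the 10, against 6.42% of all. The Stra8 window held 5 CpG dinucleotides and the others of the 10 held 12 (Sycp3) to 31 (Ddx4), against a median of 6 over all windows. GCGGGAA and CACGTG each contain a CpG, and the shares over all windows were not matched for CpG content. These are matches of letters, not measured binding.

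**Figure D1:**
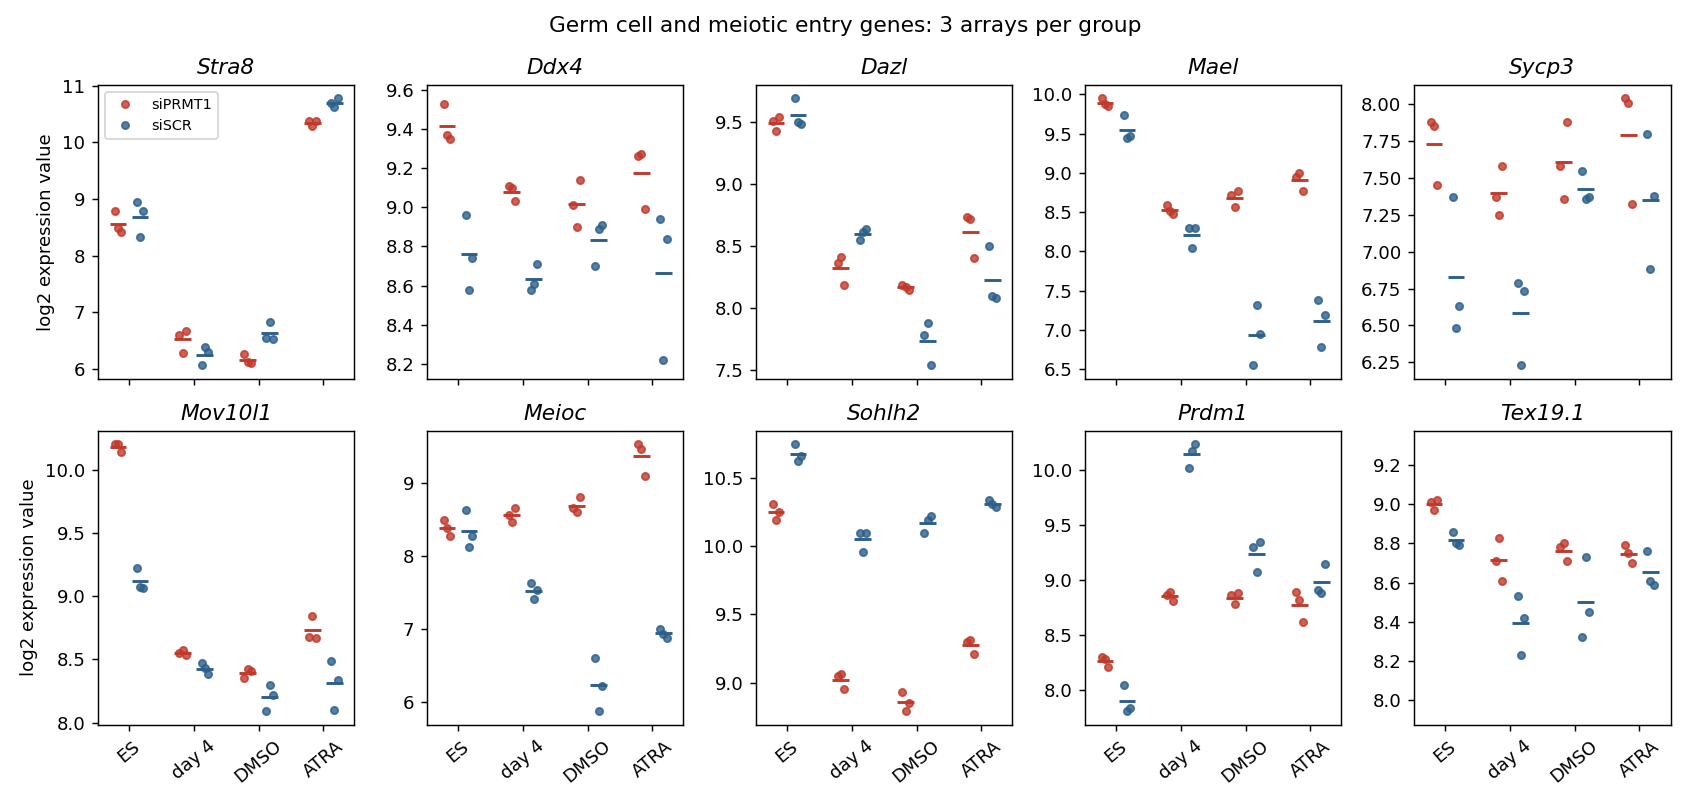
Log2 expression value (vertical axis, a scale of its own in each panel) of the 10 genes on every array, by state (horizontal axis), with siPRMT1 in red to the left of siSCR in blue; points are arrays and bars group means (n = 3). Stra8 reached 10.34 and 10.70 with ATRA in siPRMT1 and siSCR, above every other group, and Prdm1 peaked at 10.14 in siSCR day 4 embryoid bodies.

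Retinoic acid raised Stra8 more than any other measured gene in each line. Stra8 had log2 values of 10.37, 10.29 and 10.37 with ATRA in siPRMT1 embryoid bodies, against 6.26, 6.11 and 6.10 with DMSO. In siSCR embryoid bodies the values were 10.69, 10.63 and 10.78 with ATRA, against 6.55, 6.83 and 6.52 with DMSO. No array of one treatment came near those of the other. The rise was 4.19 ± 0.14 in siPRMT1, or 18.2-fold (95% interval 14.9 to 22.2, adjusted p = 8.9e-15), and 4.07 ± 0.14 in siSCR, or 16.8-fold (13.8 to 20.5, adjusted p = 3.58e-14). It ranked 1 of 19938 by rise in each line. The difference between the lines was 0.12, with a 95% interval of -0.29 to 0.52 (adjusted p = 0.821). The DMSO level lay below the scale of low signal, where log2 changes are compressed. In bulk RNA fewer cells of a type and less RNA per cell cannot be told apart.

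Stra8 was also expressed in undifferentiated cells, at a level between those of ATRA and DMSO embryoid bodies. It had 6.60, 6.28 and 6.67 in siPRMT1 day 4 embryoid bodies, against 8.79, 8.49 and 8.41 in undifferentiated siPRMT1 cells. In siSCR it had 6.06, 6.39 and 6.30 at day 4, against 8.95, 8.33 and 8.78 in undifferentiated cells. Every day 4 array was thus below every undifferentiated array. The change at day 4 was -2.05 ± 0.14 in siPRMT1 (adjusted p = 1.69e-10) and -2.44 ± 0.14 in siSCR (adjusted p = 1.36e-11). The groups thus fell into 3 tiers: both ATRA groups, which did not overlap, both undifferentiated groups, which did, and the 4 day 4 and DMSO groups, whose neighbours in order overlapped. Between the lines Stra8 was not called in undifferentiated cells (-0.12 ± 0.14, adjusted p = 0.649) or at day 4 (0.27 ± 0.14, adjusted p = 0.198). It was called lower in siPRMT1 with DMSO (-0.47 ± 0.14, adjusted p = 0.00507) and with ATRA (-0.36 ± 0.14, adjusted p = 0.0258). These calls were lost after quantile normalization with DMSO (adjusted p = 0.102) and after median centring with ATRA (adjusted p = 0.175), and the ATRA call also without siSCR replicate 3 (0.0777) or siPRMT1 replicate 2 (0.0740).

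No other member moved as far with ATRA. In siPRMT1 5 of the 10 were called higher (Stra8, Meioc, Dazl, Sohlh2 and Mov10l1) and 5 were not called, where 12% of all genes were called either way, 6.05% higher and 5.94% lower. In siSCR 3 were called higher (Stra8, Meioc and Dazl), Prdm1 lower and 6 not, against 23.4% of all genes, 11.2% higher and 12.2% lower. The median change of the 10 was 0.28 in siPRMT1 and 0.15 in siSCR, against 0.025 and 0.028 over all genes. For the difference of the response between the lines 0 of the 10 were called by limma, against 3.24% of all genes (1.92% higher and 1.32% lower), and 2 (Mov10l1 and Sohlh2) had an unadjusted p under 0.05. With only the 6 siSCR arrays of DMSO and ATRA in the fit, Stra8 alone of the 10 was called in siSCR. Over all genes that fit called 544, against 4663 in the fit of all groups, so the loss of calls was not particular to the 10.

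**Figure D2:**
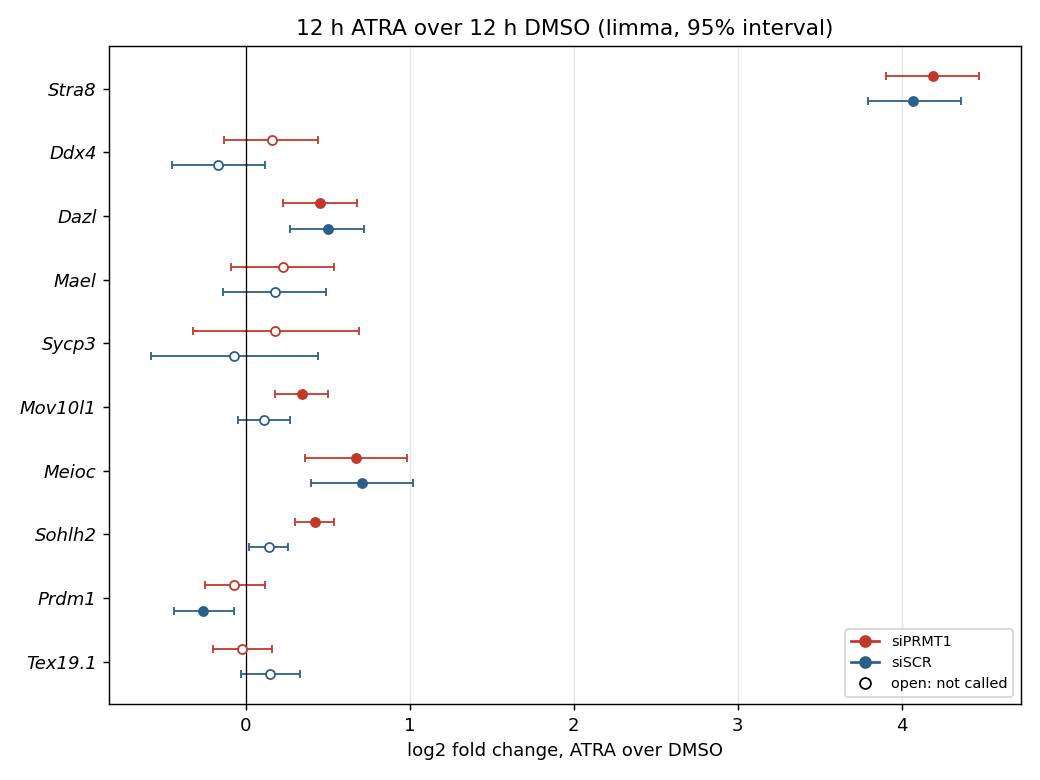
Log2 fold change of 12 h ATRA over 12 h DMSO (horizontal axis) for the 10 genes, siPRMT1 above siSCR; points are limma estimates, bars 95% intervals, open points not called (n = 3 arrays per group). Stra8 stood at 4.19 and 4.07, and the other 9 genes lay between -0.26 and 0.71.

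Meioc, the partner of YTHDC2 in early meiosis, had the next largest ATRA response of the set after Stra8, from base levels that differed between the lines. With ATRA it had 9.53, 9.47 and 9.09 in siPRMT1, against 8.66, 8.60 and 8.81 with DMSO. In siSCR it had 7.01, 6.94 and 6.88 with ATRA, against 6.61, 5.88 and 6.23 with DMSO. In both lines every ATRA array was above every DMSO array. The rise was 0.67 ± 0.15 in siPRMT1 (adjusted p = 0.00339) and 0.71 ± 0.15 in siSCR (adjusted p = 0.0018). The siSCR call was lost with only the groups compared (0.0737), and both siSCR means lay below the scale of low signal. The difference of the rise between the lines was -0.04, with a 95% interval of -0.47 to 0.40.

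The base levels of Meioc parted as the cells formed embryoid bodies. Undifferentiated cells had 8.49, 8.38 and 8.28 in siPRMT1 and 8.63, 8.12 and 8.28 in siSCR, and these overlapped (0.04 ± 0.15, adjusted p = 0.915). At day 4 the values were 8.56, 8.47 and 8.66 in siPRMT1, against 7.63, 7.41 and 7.53 in siSCR. The gene fell in siSCR by 0.82 ± 0.15 (adjusted p = 0.000185) but was not called in siPRMT1 (0.18 ± 0.15, adjusted p = 0.356), a difference between the lines of 1.00 ± 0.21 (adjusted p = 0.0013). The knockdown effect on Meioc was 1.04 ± 0.15 at day 4 (adjusted p = 3.58e-05). It was 2.45 ± 0.15 with DMSO and 2.42 ± 0.15 with ATRA, in comparisons that span the 2 sets of arrays. The change with DMSO relative to day 4 was 0.13 ± 0.15 in siPRMT1 (adjusted p = 0.930) and -1.28 ± 0.15 in siSCR (adjusted p = 2.11e-07). By level the 4 siPRMT1 groups came first, with ATRA apart from the other 3 at the top and those 3 overlapping undifferentiated siSCR, and then siSCR at day 4, with ATRA and with DMSO, each apart from the next.

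The RNA helicase gene Ddx4, also called Vasa and a classic germ cell marker, was higher in siPRMT1 than in siSCR before differentiation and at day 4. In undifferentiated cells it had 9.53, 9.37 and 9.35 in siPRMT1, against 8.96, 8.58 and 8.74 in siSCR. Day 4 values were 9.11, 9.10 and 9.03 in siPRMT1, against 8.58, 8.61 and 8.71 in siSCR. In neither state did the lines overlap. The change was 0.66 ± 0.14 in undifferentiated cells, or 1.58-fold (adjusted p = 0.00151), and 0.45 ± 0.14 at day 4 (adjusted p = 0.0252). The day 4 call was lost after quantile normalization (0.0651) and without siPRMT1 replicate 1 (0.0770), siPRMT1 replicate 2 (0.0725), siSCR replicate 1 (0.0723) or siSCR replicate 2 (0.0775). With embryoid body formation Ddx4 changed by -0.34 ± 0.14 in siPRMT1, where every day 4 array lay below every undifferentiated array, and by -0.13 ± 0.14 in siSCR, with overlap. The siPRMT1 change just missed the threshold (adjusted p = 0.0553) and was called lower in 7 alternatives, among them only the groups compared (0.00373), array weights (0.00415) and quantile normalization (0.0214), but not after median centring, after scaling or with any single array left out. ATRA gave 0.16 ± 0.14 in siPRMT1 and -0.17 ± 0.14 in siSCR, neither called. With DMSO the values were 9.01, 8.90 and 9.14 in siPRMT1 and 8.70, 8.89 and 8.91 in siSCR, which overlapped. With ATRA they were 9.26, 9.27 and 8.99 in siPRMT1, against 8.94, 8.22 and 8.84 in siSCR. These did not overlap, and the change of 0.51 ± 0.14 was called (adjusted p = 0.00269) but lost after quantile normalization (0.109).

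Dazl, whose product binds germ cell transcripts and controls their translation, fell with embryoid body formation and rose in part with ATRA, in both lines. It had 8.36, 8.41 and 8.19 in siPRMT1 day 4 embryoid bodies, against 9.51, 9.43 and 9.54 in undifferentiated siPRMT1 cells. In siSCR it had 8.55, 8.61 and 8.64 at day 4, against 9.69, 9.50 and 9.48 in undifferentiated cells. No arrays of the 2 states overlapped, with changes of -1.18 ± 0.11 in siPRMT1 (adjusted p = 2.1e-08) and -0.95 ± 0.11 in siSCR (adjusted p = 5.27e-07). The knockdown effect at day 4, where the lines did not overlap, was -0.29 ± 0.11 and not called (adjusted p = 0.0738). It was called lower with the replicate block (0.0449), with only the groups compared (0.0225), with array weights (0.0086) and once the 6 siSCR arrays given DMSO or ATRA were out of the fit (0.0185). ATRA raised Dazl by 0.45 ± 0.11 in siPRMT1 (adjusted p = 0.00683) and 0.50 ± 0.11 in siSCR (adjusted p = 0.00263). The siSCR call was lost with only the groups compared (0.114). With ATRA Dazl had 8.73, 8.72 and 8.40 in siPRMT1 and 8.50, 8.10 and 8.08 in siSCR, still below every undifferentiated array. The DMSO values were 8.19, 8.17 and 8.15 in siPRMT1, against 7.78, 7.88 and 7.54 in siSCR. The lines were apart with DMSO (0.44 ± 0.11, adjusted p = 0.00147) and overlapped with ATRA, where the change of 0.39 ± 0.11 was called (adjusted p = 0.00318) but lost after quantile normalization (0.0524).

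Mov10l1, whose helicase starts the processing of piRNA precursors, had the largest knockdown effect of the set in undifferentiated cells. It had 10.20, 10.20 and 10.14 in undifferentiated siPRMT1 cells, against 9.22, 9.07 and 9.06 in siSCR. The lines stood apart by far more than their scatter, a change of 1.06 ± 0.077, or 2.09-fold (95% interval 1.87 to 2.33, adjusted p = 1.32e-08), the 10th largest rise of all genes. At day 4 the values lay close, at 8.55, 8.57 and 8.53 in siPRMT1 and 8.47, 8.43 and 8.38 in siSCR (0.12 ± 0.077, adjusted p = 0.311). The change with embryoid body formation was -1.63 ± 0.077 in siPRMT1 and -0.69 ± 0.077 in siSCR, which differed by -0.94 ± 0.11 (adjusted p = 2.64e-06). ATRA raised Mov10l1 in siPRMT1 (0.34 ± 0.077, adjusted p = 0.00467), and in siSCR the change was 0.11 ± 0.077 (adjusted p = 0.321). The difference of the response, 0.23 ± 0.11, was not called (adjusted p = 0.286). With DMSO it had 8.35, 8.42 and 8.41 in siPRMT1, against 8.09, 8.30 and 8.22 in siSCR. With ATRA it had 8.68, 8.84 and 8.67 in siPRMT1, against 8.49, 8.10 and 8.34 in siSCR. All 6 of these siPRMT1 arrays lay above the siSCR arrays of their state, yet below every undifferentiated array. The change with ATRA was 0.42 ± 0.077 (adjusted p = 7.91e-05), and that with DMSO was 0.19 ± 0.077 (adjusted p = 0.035). The DMSO call was lost after quantile normalization (0.686) and without siSCR DMSO replicate 1 (0.161) or 3 (0.0574). It was also lost without siPRMT1 DMSO replicate 2 (0.0877) or 3 (0.0813).

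Mael, the gene of the piRNA factor Maelstrom, fell at day 4 in both lines. It had 9.95, 9.88 and 9.85 in undifferentiated siPRMT1 cells and 9.74, 9.44 and 9.47 in siSCR. In day 4 embryoid bodies it had 8.59, 8.51 and 8.47 in siPRMT1 and 8.30, 8.04 and 8.30 in siSCR. The lines did not overlap in either state, yet the changes of 0.35 ± 0.15 (adjusted p = 0.131) and 0.31 ± 0.15 (adjusted p = 0.181) were not called. They were called once the 6 siSCR arrays given DMSO or ATRA were out of the fit, at adjusted p = 0.00936 and 0.0189. Its change at day 4 was -1.37 ± 0.15 in siPRMT1 (adjusted p = 3.18e-07) and -1.33 ± 0.15 in siSCR (adjusted p = 5.74e-07), with a difference of -0.04 and a 95% interval of -0.49 to 0.41. With DMSO it had 8.72, 8.56 and 8.77 in siPRMT1, against 6.55, 7.32 and 6.95 in siSCR, a change of 1.74 ± 0.15, or 3.34-fold. With ATRA it had 8.95, 9.00 and 8.77 in siPRMT1, against 7.38, 6.78 and 7.19 in siSCR, a change of 1.79 ± 0.15, or 3.46-fold. In siPRMT1 the DMSO arrays overlapped day 4 and the ATRA arrays lay above it, while in siSCR both lay below every day 4 array, and both comparisons span the 2 sets of arrays.

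Tex19.1, active in germ cells, placenta and pluripotent cells, was the steadiest member: its 8 group means ran from 9.00 to 8.39, a span of 1.52-fold. In undifferentiated cells the values were 9.01, 8.97 and 9.02 in siPRMT1 and 8.86, 8.80 and 8.79 in siSCR, which did not overlap but were not called (0.18 ± 0.087, adjusted p = 0.167). Day 4 embryoid bodies had 8.71, 8.83 and 8.61 in siPRMT1, against 8.53, 8.23 and 8.42 in siSCR. That change of 0.32 ± 0.087 was called (adjusted p = 0.0117), but not without siSCR replicate 2 (0.0935) or siPRMT1 replicate 2 (0.0741). Its change with embryoid body formation was -0.28 ± 0.087 in siPRMT1 (adjusted p = 0.0125) and -0.42 ± 0.087 in siSCR (adjusted p = 0.000725). The siPRMT1 call was lost after median centring (adjusted p = 0.207), after scaling (0.147) and without siPRMT1 day 4 replicate 3 (0.0697). With DMSO it had 8.78, 8.80 and 8.71 in siPRMT1 and 8.32, 8.73 and 8.45 in siSCR, and with ATRA 8.79, 8.75 and 8.70 in siPRMT1 and 8.76, 8.61 and 8.59 in siSCR. The lines overlapped in both, and the change with DMSO was called (0.26 ± 0.087, adjusted p = 0.0127). That call was lost after quantile normalization (0.644), with only the groups compared (0.0618) and without siSCR DMSO replicate 1 (0.0966).

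Sycp3 encodes a core protein of the axis along meiotic chromosomes, and its median SD within a group, 0.28, was the highest of the set. Undifferentiated cells had 7.88, 7.85 and 7.45 in siPRMT1, against 7.37, 6.48 and 6.63 in siSCR. Day 4 embryoid bodies had 7.37, 7.25 and 7.58 in siPRMT1, against 6.79, 6.23 and 6.73 in siSCR. The siPRMT1 arrays lay above the siSCR arrays in both states, in the first by a narrow margin. The changes were 0.90 ± 0.24 (adjusted p = 0.0116) and 0.82 ± 0.24 (adjusted p = 0.0227). In undifferentiated cells the call was lost without siSCR replicate 2 (0.73, adjusted p = 0.0711), siSCR replicate 3 (0.80, 0.0580) or siPRMT1 replicate 1 (0.82, 0.0508). At day 4 it was lost without siSCR replicate 2 (0.64, 0.135), siPRMT1 replicate 1 (0.83, 0.0555) or siPRMT1 replicate 3 (0.73, 0.0896). The log2 change in these fits, given first in each bracket, kept its direction. ATRA gave 0.18 ± 0.24 in siPRMT1 and -0.07 ± 0.24 in siSCR, neither called. The values with DMSO were 7.58, 7.36 and 7.88 in siPRMT1 and 7.55, 7.36 and 7.37 in siSCR, and with ATRA 8.04, 8.01 and 7.32 in siPRMT1 and 7.80, 6.88 and 7.38 in siSCR. The lines overlapped in both, with the knockdown effect called in neither. With ATRA that effect was called higher with array weights (0.013) and without siSCR replicate 1 (0.0292) or siPRMT1 replicate 3 (0.0237).

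Sohlh2 and Prdm1, which encode transcription factors of germ cells, were the members called lower in siPRMT1 at day 4. Sohlh2, needed by early spermatogonia and oocytes, had 10.31, 10.19 and 10.25 in undifferentiated siPRMT1 cells, against 10.75, 10.63 and 10.66 in siSCR. In day 4 embryoid bodies it had 9.05, 9.06 and 8.95 in siPRMT1, against 10.10, 9.96 and 10.10 in siSCR. With DMSO it had 8.93, 8.79 and 8.85 in siPRMT1, against 10.10, 10.19 and 10.22 in siSCR. It was the only member lower in siPRMT1, without overlap, in all 4 states. The changes were -0.43 ± 0.058 in undifferentiated cells, -1.03 ± 0.058 at day 4, -1.31 ± 0.058 with DMSO and -1.04 ± 0.058 with ATRA, with adjusted p from 1.82e-05 to 9.69e-14. Its change with embryoid body formation was -1.23 ± 0.058 in siPRMT1 and -0.63 ± 0.058 in siSCR, a difference of -0.60 ± 0.081 (adjusted p = 1.49e-05). With ATRA it had 9.30, 9.31 and 9.21 in siPRMT1, a rise of 0.42 ± 0.058 over DMSO (adjusted p = 2.39e-05). The siSCR values with ATRA were 10.34, 10.31 and 10.29, which lay above those with DMSO but were not called (0.14 ± 0.058, adjusted p = 0.0786). By level, undifferentiated siSCR cells came first, the other 3 siSCR groups followed around undifferentiated siPRMT1 cells with overlapping neighbours, and the 3 siPRMT1 groups of embryoid bodies came last, each apart from the next.

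Prdm1, which encodes a repressor needed to set aside primordial germ cells and is also active in visceral endoderm, was the only member to rise with embryoid body formation in both lines. It had 8.86, 8.89 and 8.81 in siPRMT1 at day 4, against 8.30, 8.28 and 8.21 in undifferentiated siPRMT1 cells. In siSCR it had 10.01, 10.17 and 10.23 at day 4, against 8.05, 7.81 and 7.84 in undifferentiated cells. No arrays of the 2 states overlapped in either line, but the step was far larger in siSCR. The rise was 0.59 ± 0.089 in siPRMT1, or 1.51-fold (adjusted p = 1.63e-05), and 2.24 ± 0.089 in siSCR, or 4.71-fold (adjusted p = 7.24e-14), the 15th largest rise there. The difference between the lines was -1.65 ± 0.13 (adjusted p = 1.22e-08). The knockdown effect on Prdm1 was 0.36 ± 0.089 in undifferentiated cells (adjusted p = 0.00589) and -1.28 ± 0.089 at day 4 (adjusted p = 3.57e-09), the 5th deepest fall of all genes. ATRA gave -0.07 ± 0.089 in siPRMT1 (adjusted p = 0.726) and -0.26 ± 0.089 in siSCR (adjusted p = 0.0393). The siSCR call was lost without any of 4 single arrays, at adjusted p from 0.107 to 0.139, and with only the groups compared (0.247). With ATRA it had 8.89, 8.82 and 8.62 in siPRMT1 and 8.91, 8.88 and 9.14 in siSCR, which overlapped. The knockdown effect with ATRA was -0.20 ± 0.089 (adjusted p = 0.0491), and that with DMSO was -0.39 ± 0.089 (adjusted p = 0.000652). The ATRA call was lost after median centring (0.551) or scaling (0.122), and with the replicate block (0.0544), only the groups compared (0.134) or array weights (0.233). It was also lost without siSCR ATRA replicate 3 (0.254) and without siPRMT1 ATRA replicate 2 (0.0630) or 3 (0.238).

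**Figure D3:**
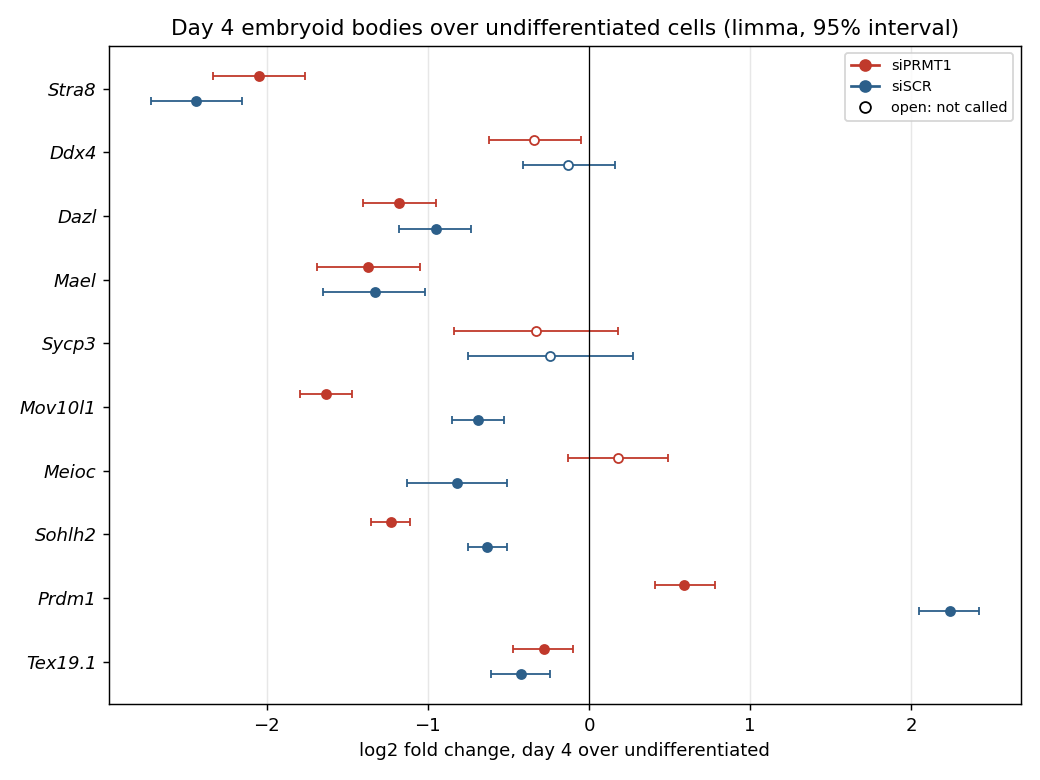
Log2 fold change of day 4 embryoid bodies over undifferentiated cells (horizontal axis) for the 10 genes, siPRMT1 above siSCR; points are limma estimates, bars 95% intervals, open points not called (n = 3 arrays per group). Prdm1 stood at 0.59 and 2.24 and Mov10l1 at -1.63 and -0.69, and Stra8 fell most in both lines, at -2.05 and -2.44.

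Embryoid body formation lowered most of the set. In siPRMT1 6 of the 10 were called lower, 1 higher and 3 not called, against 41.4% of all genes called either way, 18.4% lower and 23% higher. In siSCR 7 were lower, 1 higher and 2 not called, against 28.2% of all genes, 13.7% lower and 14.5% higher. The median change of the 10 was -0.76 in siPRMT1 and -0.66 in siSCR, against -0.043 and 0.00067 over all genes. Ddx4 and Sycp3 were called in neither line. In siPRMT1 Ddx4 had the exceptions given above, and Sycp3 was called lower with array weights (-0.43, adjusted p = 0.0388). Markers of other cells moved with this step. Feeder markers were called lower for 15 of 18 in siPRMT1 (median -0.85) and 13 of 18 in siSCR (-0.92). Of 10 listed genes of the 2-cell-like state only 5 were measured, and 5 of 5 were called lower in each line (-1.15 and -2.70). Visceral endoderm markers were called higher for 13 of 14 in siPRMT1 (1.66) and 12 of 14 in siSCR (0.98). Their part in the result was not tested. The response differed between the lines in 4 of the 10 (Prdm1, Mov10l1, Sohlh2 and Meioc), against 23.8% of all genes. It was lower in siPRMT1 for 3 of them and higher for Meioc, where 8.83% of all genes were called lower and 15% higher. The undifferentiated and day 4 arrays behind these values also enter the knockdown comparisons.

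In undifferentiated cells 4 of the 10 were called higher in siPRMT1 than in siSCR (Mov10l1, Sycp3, Ddx4 and Prdm1), Sohlh2 lower and 5 not called. Of all genes 18.8% were called either way, 7.63% higher and 11.2% lower. In day 4 embryoid bodies 4 were called higher in siPRMT1 (Meioc, Sycp3, Ddx4 and Tex19.1), Prdm1 and Sohlh2 lower and 4 not called. This stood against 18.4% of all genes, 11.4% higher and 7.01% lower. The median of the 10 was 0.27 in undifferentiated cells and 0.29 at day 4, against 0.0061 and -0.016 over all genes. Ddx4 and Sycp3 were thus called higher, and Sohlh2 lower, in both states. Fibroblast and feeder markers moved with the lines: 10 of 18 were called lower in undifferentiated siPRMT1 cells, where their summed linear signal was 10707 to 11177, against 14572 to 15477 in siSCR. At day 4 their sums were 5215 to 5275 in siPRMT1 and 6332 to 6871 in siSCR. Visceral endoderm markers were called higher at day 4 for 12 of 14, with sums of 33690 to 35105 in siPRMT1 and 20192 to 22657 in siSCR. Genes of the 2-cell-like state were called lower in undifferentiated siPRMT1 cells for 5 of 5, with sums of 1293 to 1590 in siPRMT1 and 3590 to 4158 in siSCR, and for 0 of 5 at day 4. The part of these cells in the results was not tested.

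With DMSO 5 of the 10 were higher in siPRMT1, 3 lower and 2 not called, where 65.9% of all genes were called either way, 31.3% higher and 34.6% lower. With ATRA the counts were again 5, 3 and 2, against 70.1% of all genes (32.2% higher and 38% lower), so the share in the set was near the background in both. Meioc and Mael led the rises, and Sohlh2 the falls. Visceral endoderm markers were called higher for 12 of 14 with DMSO and 11 of 14 with ATRA, with sums of 38376 to 39287 and 34268 to 35560 in siPRMT1, against 17971 to 20503 and 15254 to 17242 in siSCR. The sums of the 2-cell-like genes were 508 to 577 with DMSO and 556 to 604 with ATRA in siPRMT1, against 4765 to 5643 and 3435 to 5696 in siSCR. Of the 5, 1 was called higher and 2 lower with DMSO, and 2 higher and 1 lower with ATRA. Usp17ld had by far the largest change, -5.34 ± 0.17 with DMSO and -4.92 ± 0.17 with ATRA. Zfp352 went the other way (0.66 ± 0.091 and 0.31 ± 0.091), as did Usp17la with ATRA (0.62 ± 0.19). The median change of the 5 was -0.03 with DMSO and -0.05 with ATRA, so the sums do not describe the list as a whole. The part of these 2 sets of markers in the result was not tested. The median of all genes in these comparisons was itself -0.09 and -0.106, and median centring moved it to 0.017 and 0.026. Relative to that median, Meioc stood at 2.54 with DMSO and 2.52 with ATRA, Mael at 1.83 and 1.90, and Sohlh2 at -1.22 and -0.94. Over these and 3 rescalings the relative values ran from 2.52 to 2.58 for Meioc, 1.81 to 1.95 for Mael and -1.52 to -0.94 for Sohlh2. Ddx4 with DMSO and Tex19.1 with ATRA, neither called, changed sign among the rescalings.

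The step from day 4 to DMSO differed in count between the lines, with the share in the set near that over all genes in each. The difference was not tested. In siPRMT1 0 of the 10 differed between DMSO and day 4 by limma, against 0.461% of all genes (0.306% higher and 0.155% lower), and 2 (Stra8 and Sohlh2) had an unadjusted p under 0.05. In siSCR 2 were higher with DMSO than at day 4, 5 lower and 3 not called, against 61.1% of all genes, 30.8% higher and 30.3% lower. Meioc (-1.28 ± 0.15), Mael (-1.27 ± 0.15), Prdm1 (-0.90 ± 0.089) and Dazl (-0.87 ± 0.11) fell most there, and Sycp3 rose (0.84 ± 0.24). After quantile normalization the siSCR calls of Stra8 (adjusted p = 0.227) and Mov10l1 (0.533) were lost. Ddx4 (0.0126), Sohlh2 (2.12e-06) and Tex19.1 (0.00448) were then called higher. Prdm1 had 9.30, 9.07 and 9.34 in siSCR with DMSO, below every siSCR day 4 array, and 8.86, 8.78 and 8.88 in siPRMT1 with DMSO, which overlapped day 4. This siSCR contrast also spans the 2 sets of arrays.

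**Figure D4:**
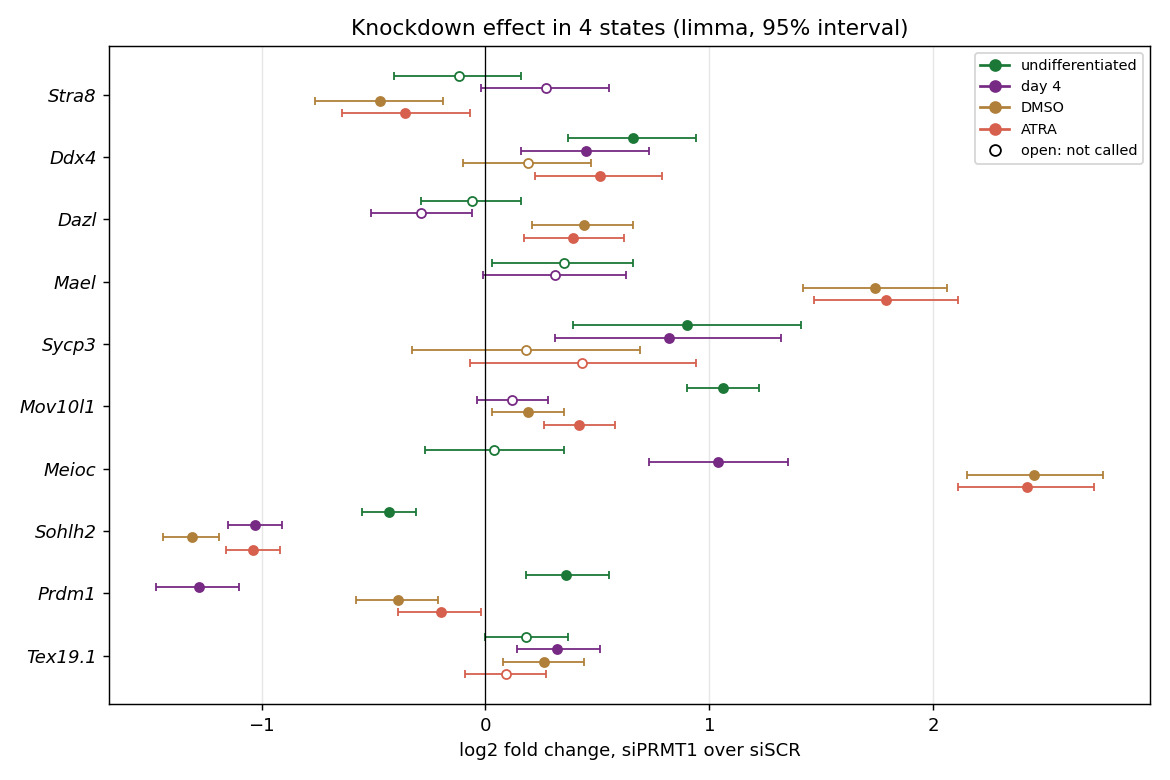
Log2 fold change of siPRMT1 over siSCR (horizontal axis) for the 10 genes in the 4 states, in order from top to bottom within each gene; points are limma estimates, bars 95% intervals, open points not called (n = 3 arrays per group). Sohlh2 lay below 0 in all 4 states, Meioc stood at 0.04 in undifferentiated cells, 1.04 at day 4 and 2.45 with DMSO, and Prdm1 stood at 0.36 in undifferentiated cells and -1.28 at day 4.

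The other genes of these pathways, 75 measured of 81 in 6 lists, were called in both directions with ATRA. In siPRMT1 12 of the 75 (16%) were called higher and 9 (12%) lower, against 6.05% and 5.94% of all genes. In siSCR 11 (14.7%) were higher and 10 (13.3%) lower, against 11.2% and 12.2% of all genes, with a median change of 0.04 in both, against 0.025 and 0.028 over all genes. Dmrt1, a gonadal transcription factor, rose most among them, by 1.30 ± 0.077 in siPRMT1 and 1.07 ± 0.077 in siSCR. Rec8, the meiotic cohesin subunit, rose by 0.69 ± 0.068 in siPRMT1 and 0.27 ± 0.068 in siSCR, a difference of 0.42 ± 0.096 (adjusted p = 0.0179). Of 12 primordial germ cell genes 3 were called higher and 5 lower in siPRMT1, and 3 and 2 in siSCR. Kit (0.56 ± 0.060 and 0.65 ± 0.060) and Tfap2c (0.55 ± 0.11 and 0.50 ± 0.11) rose in both lines, while Lin28a (-0.43 ± 0.067) fell in siPRMT1 and Elavl2 (-0.49 ± 0.065) in siSCR. Prdm14 fell by 0.61 ± 0.069 in siPRMT1 and 0.24 ± 0.069 in siSCR, a difference of -0.37 ± 0.097 (adjusted p = 0.042). Of 17 other piRNA genes 3 were higher and 2 lower in siPRMT1, and 4 and 2 in siSCR. In both lines Piwil4, which encodes a nuclear piRNA effector, rose (0.57 ± 0.080 and 0.40 ± 0.080) and Tdrd12 fell (-0.59 ± 0.10 and -0.71 ± 0.10). Of 7 measured genes around meiotic entry Rbm46, a partner of MEIOC, was called higher in both lines (0.28 ± 0.076 and 0.36 ± 0.076). Taf4b was lower in siPRMT1 (-0.19 ± 0.054) and Mybl1 in siSCR (-0.61 ± 0.10), and the other 4 were called in neither. Among 15 genes of meiotic recombination 2 were higher in siPRMT1, and in siSCR 1 was higher and 2 lower. Dmc1 rose in both lines (0.32 ± 0.092 and 0.28 ± 0.092) and Iho1 in siPRMT1 (0.47 ± 0.12), while Meiob (-0.76 ± 0.21) and Mlh3 (-0.37 ± 0.063) fell in siSCR. By contrast 11 of 11 early targets of retinoic acid were called higher in siPRMT1 and 9 of 11 in siSCR.

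**Figure D5:**
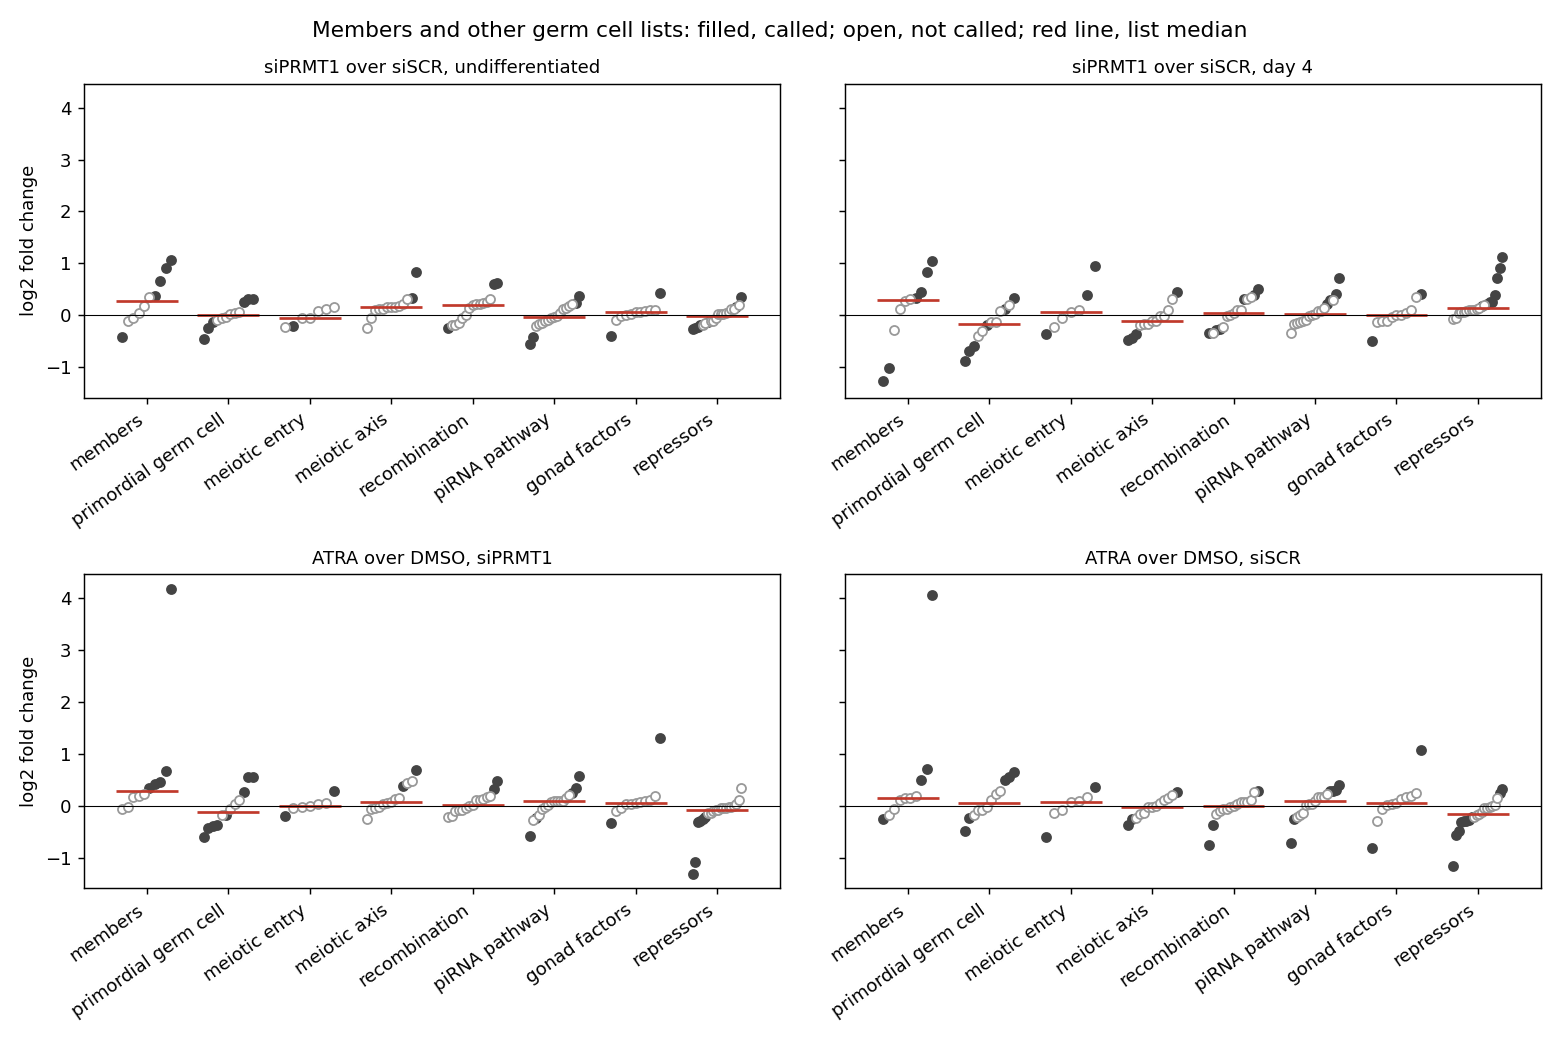
Log2 fold change (vertical axis) of the 10 genes and of 7 other lists (horizontal axis, one point per gene in rising order) for the knockdown in undifferentiated and day 4 cells (top) and for ATRA over DMSO in siPRMT1 and siSCR (bottom); filled points were called, red lines are medians. Stra8 at 4.19 and 4.07 stands above all other points of the ATRA panels, where Dmrt1 follows at 1.30 and 1.07.

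For the knockdown the same lists were split between rises and falls. In undifferentiated cells 10 of the 75 (13.3%) were called higher and 8 (10.7%) lower, against 7.63% and 11.2% of all genes, with Stag3 (0.83 ± 0.073), Dmc1 (0.62 ± 0.092) and Meiob (0.60 ± 0.21) the largest among the meiotic genes. At day 4 13 (17.3%) were higher and 12 (16%) lower, against 11.4% and 7.01% of all genes, and Stag3 (-0.49 ± 0.073) and Dmc1 (-0.35 ± 0.092) were now among the falls. Of 12 other primordial germ cell genes 4 were called lower and 2 higher at day 4, among them Ifitm3 (-0.89 ± 0.051), Tfap2c (-0.70 ± 0.11) and Prdm14 (-0.60 ± 0.069) on the lower side and Lin28a (0.32 ± 0.067) on the higher. Of 20 genes of the repressors that hold germline promoters silent, 8 were called higher at day 4, 0 lower and 12 not called, where 11.4% of all genes were higher and 7.01% lower, with Dnmt3a (1.11 ± 0.060), Dnmt3b (0.90 ± 0.059) and Dnmt3l (0.71 ± 0.062) at the top. In undifferentiated cells 2 of the 20 were higher and 5 lower, against 7.63% and 11.2% of all genes, with Dnmt3l at 0.35 ± 0.062, Dnmt3b at -0.27 ± 0.059 and Max at -0.24 ± 0.067. With ATRA the change of Dnmt3l was -1.32 ± 0.062 in siPRMT1 and -1.17 ± 0.062 in siSCR, and that of Dnmt3b -1.08 ± 0.059 and -0.56 ± 0.059, all called lower.

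Among all genes, likeness to a member was measured as the root mean square difference between the 8 group means, each gene centred on its own mean. This difference is in log2 units and not scaled to the span, so a member of larger span can show larger values. The 8 means include siSCR with DMSO and with ATRA, so likeness can also reflect the gap of those arrays from the rest. Stra8 was nearest to Aqp3 at 0.55, then Hoxa5 at 0.75 and Dhrs3 at 0.91, on a span of 4.54 log2 units for Stra8. Dazl was matched by Cdk18, Sema7a and Cdkn2c at 0.11 to 0.14, on a span of 1.83. Sycp3 was nearest to Zcwpw1 (0.19), Majin (0.25) and Pspc1 (0.26), and Mov10l1 to Hspa12a (0.19), Pramel1 (0.21) and Tspan18 (0.23). Meioc lay nearest to Cacng7 (0.24), Crtc3 and Cntfr, and Mael to Phlda2 (0.27), Gdpd1 and Nuak1. Prdm1 was nearest to Ephx2, Klk1b22 (0.25 each) and Ndrg1 (0.29), and Sohlh2 to Snord14e (0.26), Igfbp4 and Nrn1. Ddx4 and Tex19.1 spanned under 1 log2 unit and were not matched. These genes were chosen for likeness, so no test applies.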

How the data were processed

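The authors deposited 1 log2 expression value per probe set and array (24 Affymetrix whole-transcript arrays, 35556 probe sets). The log2 unit was read from the range, 2.14 to 14.5. The sources used here do not say how probes were summarised or normalized. Per the labels' protocols, each sample gave 300 ng of total RNA. The array medians were 7.47 to 7.67, and no 2 arrays were identical.

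Of the sets, 21789 had 1 gene symbol, 1621 several and 12146 none. The brightest set of each gene with 1 symbol gave 19938 genes (999 had over 1 set; each of the 10 members had 1). limma 3.58.1 in R 4.3.3 fitted 8 group means with 16 residual degrees of freedom, and p-values were adjusted by Benjamini-Hochberg within each of 12 comparisons. Precision is limited by the number of arrays, with a median standard error of 0.0932. The fit was tested on simulated data.

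Groups came from the titles. The 10 members and all lists were chosen with earlier results of these data known. All 10 members were named; of other lists up to 4 called genes with the largest change per comparison, and for likeness the 3 nearest genes of members spanning at least 1 log2 unit. Alternatives were the replicate block, only the groups compared, quantile normalization, median centring, scaling to 1 SD, no dim genes, mean of probe sets, trend and robust variance, array weights and each array left out. A fit that leaves out the 6 siSCR arrays given DMSO or ATRA was added after seeing the data. Promoter windows and gene symbols came from RefSeq (GRCm38.p6).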

Additional observations from a re-analysis of the deposited data

Results flagged for a closer look

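The response to embryoid body formation (day 4 over undifferentiated cells) differed between siPRMT1 and siSCR in 4 of the 10 genes, each by the interaction term of the limma fit. Prdm1 differed by -1.65 ± 0.13 (adjusted p = 1.22e-08), since it rose by 0.59 in siPRMT1 and by 2.24 in siSCR. Mov10l1 differed by -0.94 ± 0.11 (adjusted p = 2.64e-06), with changes of -1.63 in siPRMT1 and -0.69 in siSCR. Sohlh2 differed by -0.60 ± 0.081 (adjusted p = 1.49e-05), with changes of -1.23 in siPRMT1 and -0.63 in siSCR. Meioc differed by 1.00 ± 0.21 (adjusted p = 0.0013), with 0.18 in siPRMT1, not called, and -0.82 in siSCR.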

How the results depend on the processing

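Over all alternatives run, 0 called changes of the 10 genes reversed. The number of the 10 called moved by over 1.5 times as follows. For ATRA in siSCR it was 1 (Stra8) with only the groups compared, against 4, with Meioc at adjusted p = 0.0737 and Dazl at 0.114. For the knockdown with DMSO it was 5 after quantile normalization, against 8. For the difference of the ATRA response it was 1 (Sohlh2) without the dimmest 25% of genes, against 0. With array weights it was 8 for ATRA in siPRMT1, against 5, and 3 for vehicle in siPRMT1, against 0. With each array left out in turn, it ran from 3 to 6 for the knockdown at day 4, where Ddx4, Sycp3 and Tex19.1 were lost without siSCR replicate 2, and from 0 to 1 for the difference of the ATRA response. The cause was not tested. Once the 6 siSCR arrays given DMSO or ATRA were out of the fit, the knockdown count was 6 in undifferentiated cells and 8 at day 4. Calls over all genes rose as well, to 5111 from 3747 in undifferentiated cells and to 5105 from 3669 at day 4.

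Pairing by replicate number was not seen across the groups, though with 3 arrays a group this check cannot exclude it. Of 84 same-numbered pairs 23 correlated over 0.1, and 9 of 24 arrays correlated best with their own number. In 1 of 28 group pairs, siPRMT1 undifferentiated and with ATRA, all same-numbered pairs were over 0.1 (0.401, 0.184 and 0.606). With the replicate block the count of called members changed by at most 1: Dazl was gained for the knockdown at day 4 (adjusted p = 0.0449) and Ddx4 for embryoid body formation in siPRMT1 (0.0498), and Prdm1 was lost for the knockdown with ATRA (0.0544).

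Over all genes, array weights called 7218 for the knockdown in undifferentiated cells against 3747, 6106 at day 4 against 3669, 8969 for embryoid body formation in siSCR against 5632, and 7688 for its difference against 4754. They called 7640 for ATRA in siPRMT1 against 2391, 1567 in siSCR against 4663, and 2536 for vehicle in siPRMT1 against 92. Only the groups compared gave 544 for ATRA in siSCR and 135 for its difference against 646, which was 405 after median centring and 304 to 401 without any 1 of 5 siPRMT1 arrays (DMSO replicates 1, 2 and 3, ATRA replicates 1 and 2). Vehicle in siPRMT1 gave 47 after median centring, 49 after scaling, 145 with trend and robust variance, 286 without the 6 arrays, and 29 to 36 with an array left out. Median centring moved the share of calls that were higher to 82.9% at day 4 (against 61.9%), 59.7% with DMSO (47.5%), 59.8% with ATRA (45.9%), 75% for embryoid body formation in siPRMT1 (55.5%), 78% for its difference (63%), 32.8% for ATRA in siSCR (47.8%) and 87.2% for vehicle in siPRMT1 (66.3%). Scaling to 1 SD gave 77.8%, 71.6%, 37.3% and 81.6% at day 4, for embryoid body formation in siPRMT1, for ATRA in siSCR and for vehicle in siPRMT1, and 56.9% with ATRA. Quantile normalization gave 51.2% at day 4, 52.1% for the difference of embryoid body formation and 76.5% for vehicle in siPRMT1. Median centring also moved the all-gene median for embryoid body formation in siPRMT1 to 0.073, against -0.043. Near background, where Stra8, Sycp3, Mael and Meioc lie in some groups, log2 changes are compressed.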
